A study of Mus musculus with 6 samples.

Results

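Glycogen is the branched glucose polymer that cells keep as a quickly usable store. Glycogenin starts the chain, glycogen synthase extends it from UDP-glucose, the branching enzyme adds side branches, and glycogen phosphorylase releases glucose 1-phosphate again. White adipose tissue (WAT) holds little glycogen, and this store is known to fill and empty with feeding. The set examined here consists of 9 genes, chosen by their symbols: Gyg, Gys1, Gys2, Gbe1 and Ugp2 of synthesis, Pygl and Pygb of breakdown, Ppp1r3c, which acts on both directions, and Pgm2 of the phosphoglucomutase family. Every probe set annotated to exactly 1 of these symbols was taken, which gave 15 probe sets of 22690 in the table, and 9 of the 12394 genes that have a probe set of their own. All 15 passed the filter on dim probe sets, set on the mean log2 signal of all 6 arrays (5.45). The dimmer probe sets of Gys1 and Ppp1r3c passed it only through their TSR signals, with control means of 5.41 and 5.02.

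Epididymal WAT came from male wild-type C57BL/6 mice, which the methods give as 9 to 11 weeks old. Mice with timed sleep restriction (TSR) were kept awake by gentle handling for 6 h per day, from Zeitgeber time (ZT) 0 to 6, on 5 consecutive days. They were killed at ZT18 (the middle of the dark phase) of the last day, and control mice at ZT18 without sleep restriction. There were 3 TSR samples and 3 control samples, with 1 Affymetrix mouse expression array each. No source used here says whether a sample was a single animal or a pool, so the spread behind each p-value may be technical. For the tissue the labels give freezing in liquid nitrogen and Trizol, whereas the methods give RNAlater and a lipid tissue kit. In bulk tissue, more cells of a type and more RNA per cell cannot be told apart.

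Values are MAS5 signals, a linear measure of brightness that the authors had scaled to the same target on every array. With the top and bottom 2% set aside, each array had a mean signal of 500.2, and the 25th percentile of signals lay between 20.9 and 25.3. Log2 fold changes are TSR minus control, and a change was called at an adjusted p below 0.05 in limma over 14707 probe sets. Of these, 25.6% were called higher and 21.0% lower after TSR, so that calls were frequent throughout the arrays. Median centring turned this balance to 16.7% higher and 29.7% lower. The median over all tested probe sets, 0.04 before centring, was -0.07 after it, a shift of -0.11.

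Expression of glycogen genes was mostly higher after TSR. Of the 15 probe sets, 13 rose, 1 fell and 1 did not pass the test, against the 46.6% of all tested probe sets that were called in either direction. Their median log2 fold change was 0.34, compared with 0.04 over all tested probe sets. This median includes 5 probe sets of Ugp2 and the 2 that passed only through their TSR signals. By the brightest probe set of each gene, 7 of the 9 genes rose and 1 fell, with a median of 0.26. Among all 8618 tested genes 24.0% rose and 23.0% fell, with a median of 0.01. The 13 probe sets that passed the filter in both groups included 11 that rose. Among these the largest rises were in Gys2 and Ppp1r3c, more than 2-fold each, while the ratio of mean signals was 1.16 and 1.20 for the phosphorylase genes Pygl and Pygb. Rises of at least 2-fold were found for Gys2 and the brighter Ppp1r3c probe set, and for the dimmer ones of Gys1 and Ppp1r3c, which had to differ in order to pass. Of all tested probe sets, 2.21% rose by at least 2-fold. In 12 probe sets, the 2 dim ones included, all TSR samples were above all control samples, as in 31.4% of all tested probe sets, and in 1 all were below, as in 25.2%. Without regard to direction, groups did not overlap in 56.6% of all tested probe sets.

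**Figure D1:**
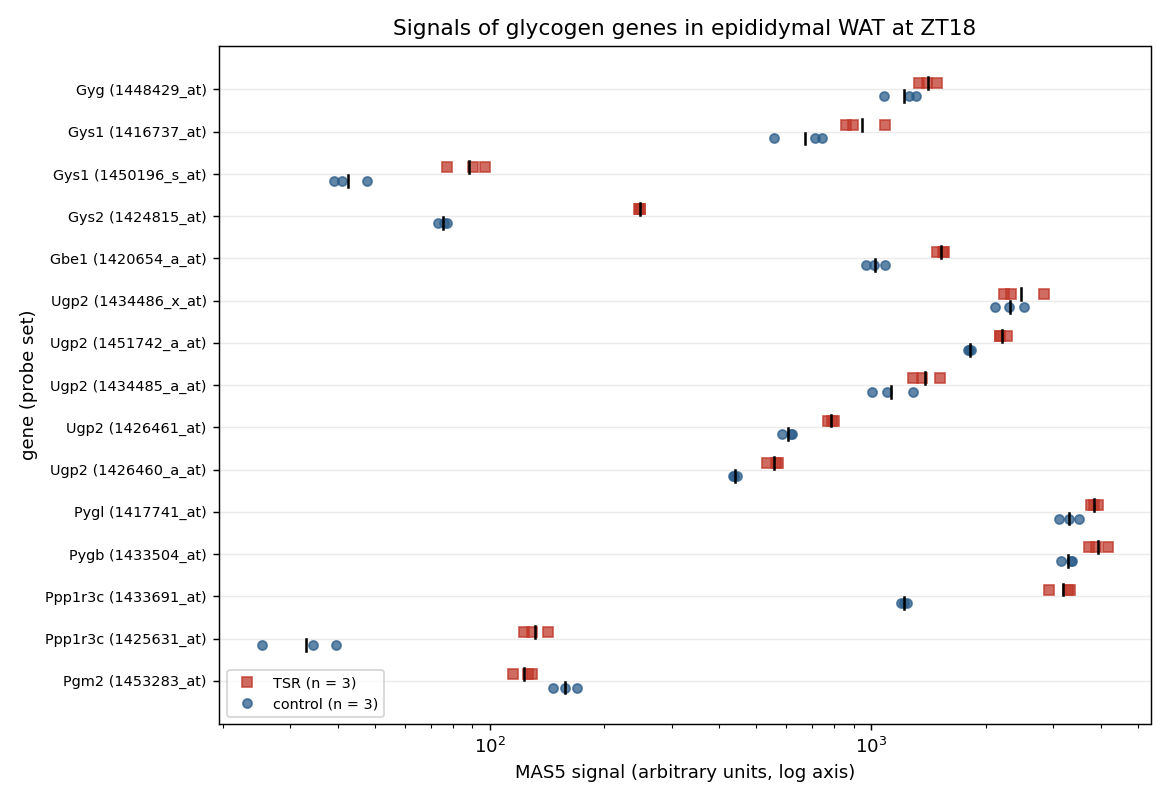
MAS5 signal on a log axis for each of the 15 probe sets of glycogen genes, with 3 TSR samples as squares, 3 control samples as circles and group means as lines. The groups are clearly apart in Gys2 and Ppp1r3c, with a mean signal of 247 in TSR and 75.5 in control samples for Gys2, and overlap only in 2 of the 5 Ugp2 probe sets.

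Ppp1r3c encodes a subunit, known as PTG, that brings protein phosphatase 1 to glycogen, where the phosphatase activates glycogen synthase and inactivates phosphorylase. The brighter Ppp1r3c probe set had signals of 3330, 3279 and 2923 in TSR samples, against 1222, 1245 and 1196 in control samples. The ratio of mean signals was 2.60, and the log2 fold change was 1.38 (standard error 0.06, adjusted p = 5.4e-07). The dimmer probe set had signals of 142, 129 and 123 in TSR samples, against 39.6, 34.4 and 25.3 in control samples. Both probe sets therefore had all TSR samples above all control samples. The 95% interval of the brighter one was 1.25 to 1.50. The dimmer one had a fitted log2 fold change of 2.01, but as its control signals lay below the filter and near the 25th percentile of 20.9 to 24.3 on control arrays, this is a description.

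The stretch of genome before the Ppp1r3c start is shown because this gene had the largest rise among members with a promoter sequence, and that of Pgm2 because it was the only member that fell. Sequences are from RefSeq (build GRCm38.p6), each 250 bases, 5′ to 3′ on the gene's strand, with capitals for motif matches. The Ppp1r3c window ends directly before the gene start, which RefSeq gives at 36736604. The Pgm2 window ends at 64092938, past the gene start that RefSeq gives at 64092919, and so reaches into the gene.
Ppp1r3c (chr19:36736605-36736854, minus strand): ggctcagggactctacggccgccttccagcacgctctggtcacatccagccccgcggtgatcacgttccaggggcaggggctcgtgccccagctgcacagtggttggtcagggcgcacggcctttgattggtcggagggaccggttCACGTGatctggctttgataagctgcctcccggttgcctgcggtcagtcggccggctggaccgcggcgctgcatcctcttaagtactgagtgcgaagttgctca
Pgm2 (chr5:64092689-64092938, plus strand): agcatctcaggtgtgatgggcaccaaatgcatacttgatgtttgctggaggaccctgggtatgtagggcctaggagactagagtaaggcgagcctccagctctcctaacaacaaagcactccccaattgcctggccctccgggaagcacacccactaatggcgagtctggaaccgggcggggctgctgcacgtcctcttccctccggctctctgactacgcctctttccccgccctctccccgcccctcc

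Ppp1r3c carried the E-box CACGTG, the sequence bound by CLOCK and BMAL1 and by other factors of the same class, with its first base 104 bases before the start. This motif was found in 6.02% of 32851 promoter windows of the same length. Among the 9 windows of 8 members (Ugp2 has 2, and Gys2 is not in the table) no other window held it. On both strands, 7 further motifs were searched, none of which contains another of them or the E-box: the D-box TTANGTAA, the ROR element, the cAMP response element TGACGTCA, the C/EBP site TTGCGCAA, the partial glucocorticoid response element AGAACA, the FOXO site GTAAACA and the TATA box TATAAA. They stood in 0.164% (C/EBP) to 16.1% (partial glucocorticoid response element) of all windows and in 0 of the 9 windows of the members. A match describes letters and not binding.

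Gys2 encodes the glycogen synthase known mainly from liver. Its signals were 246, 248 and 248 in TSR samples, against 76.0, 73.1 and 77.3 in control samples. The TSR samples lay close together and far above the control samples, which were themselves above the 25th percentile of their arrays. The mean signal was 3.28 times as high after TSR (247 ± 1.30 in TSR and 75.5 ± 2.13 in control, SD, n = 3 each), and the log2 fold change was 1.71 (standard error 0.10, adjusted p = 2.9e-06 in limma). Under the alternatives tried this fold change stayed between 1.61 and 1.73.

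Gys1, the synthase gene of muscle and most other tissues, rose as well. By its brighter probe set the signals were 895, 1091 and 859 in TSR samples, against 557, 713 and 742 in control samples. All TSR samples were above the control samples, with a log2 fold change of 0.50 (standard error 0.12, adjusted p = 0.0086). This call was lost in the methods' t-test (adjusted p = 0.088). The dimmer probe set, whose suffix marks probes that can match several transcripts, had signals of 77.3, 97.0 and 90.2 in TSR samples and 47.6, 41.1 and 39.0 in control samples (fitted log2 fold change 1.05). It passed the filter only through its TSR signals, so that the rise of Gys1 rests on the brighter probe set.

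Whether both synthase genes changed to the same degree was asked within each array, where the scaling between arrays plays no part. Since probe sets differ in brightness, only the shift of this difference between groups can be read. The log2 signal of Gys2 minus that of Gys1, each by its brightest probe set, was -1.86, -2.14 and -1.79 in TSR samples, against -2.87, -3.29 and -3.26 in control samples. All TSR samples lay above all control samples. The difference was 1.21 higher after TSR (two-sided exact permutation test, p = 0.1, below which 3 arrays against 3 cannot go), and 0.94 higher when the mean of both Gys1 probe sets was used. That mean takes in the dimmer Gys1 probe set, which passed the filter only through its TSR signals.

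Gbe1, the branching enzyme gene, had signals of 1485, 1552 and 1545 in TSR samples, against 971, 1088 and 1015 in control samples. The groups did not overlap, and the log2 fold change was 0.58 (standard error 0.05, adjusted p = 4.7e-05). Gyg encodes glycogenin, the primer of the glycogen chain. Its signals were 1403, 1332 and 1488 in TSR samples and 1081, 1313 and 1256 in control samples, so that the lowest TSR sample exceeded the highest control sample only narrowly. The log2 fold change of Gyg was 0.21 (standard error 0.08, adjusted p = 0.046). Of 15 alternatives only 5 kept this call. It was lost when TSR replicate 1 (adjusted p = 0.10), TSR replicate 3 (0.13), control replicate 1 (0.14) or control replicate 3 (0.060) was left out, and also after quantile normalization (0.076). After median centring the Gyg log2 fold change was 0.11 (adjusted p = 0.31). The call was also lost in the methods' t-test (adjusted p = 0.15) and in limma without the filter (0.083).

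Ugp2 encodes the enzyme that makes UDP-glucose, the substrate of glycogen synthase and of several other pathways, from glucose 1-phosphate. It was measured by 5 probe sets, and 4 of them rose, with log2 fold changes between 0.28 and 0.37. The one with the smallest standard error had signals of 2173, 2276 and 2177 in TSR samples, against 1800, 1832 and 1807 in control samples (standard error 0.04, adjusted p = 6.0e-04). Here the groups were well separated although the ratio of means was only 1.22. The brightest probe set, whose suffix marks probes resembling other sequences, had signals of 2228, 2324 and 2849 in TSR samples and 2301, 2110 and 2522 in control samples. These groups overlapped, with a log2 fold change of 0.09 (95% interval -0.13 to 0.31, adjusted p = 0.48), a value that was -0.018 without TSR replicate 3 and -0.017 after median centring. The other probe set with overlap (log2 fold change 0.30, adjusted p = 0.027) kept its call in 6 of 15 alternatives. Its adjusted p was 0.055 without TSR replicate 2, 0.086 without TSR replicate 3, 0.079 without control replicate 1 and 0.075 without control replicate 2.

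**Figure D2:**
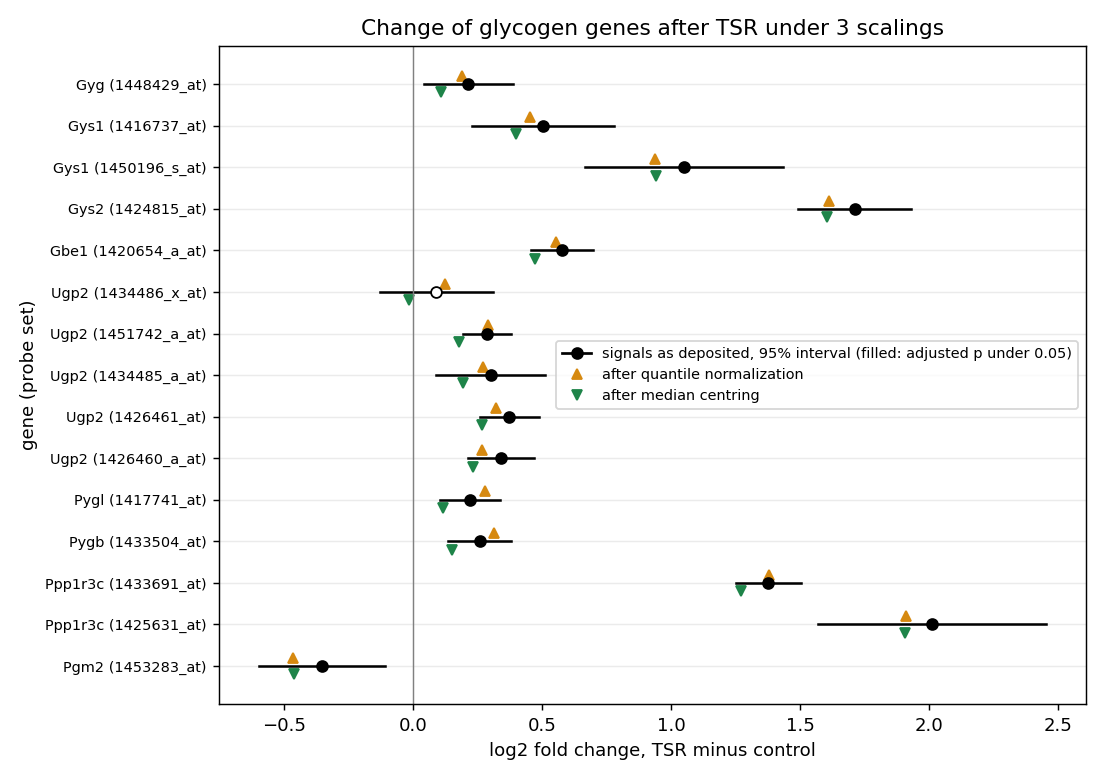
Log2 fold change, TSR minus control, of each glycogen probe set with its 95% interval from limma (filled where adjusted p was below 0.05), beside the value after quantile normalization and after median centring. Median centring shifts all 15 members alike, by -0.11. Gys2 (1.71) and the brighter Ppp1r3c probe set (1.38) remain far to the right under all 3 scalings. The dimmer Ppp1r3c probe set (2.01) passed the filter only through its TSR signals, so that its place is a description.

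The phosphorylases, which break glycogen down, changed little, to about the same degree as Gyg. Pygl, the liver-type phosphorylase gene, had signals of 3848, 3931 and 3769 in TSR samples, against 3116, 3298 and 3513 in control samples. Pygb, the brain-type gene, had signals of 3738, 4185 and 3879 in TSR samples, against 3352, 3371 and 3143 in control samples. In both genes all TSR samples were above all control samples. The log2 fold change was 0.22 for Pygl (95% interval 0.10 to 0.34, adjusted p = 0.0079) and 0.26 for Pygb (95% interval 0.13 to 0.38, adjusted p = 0.0045). Both calls were lost after median centring, with log2 fold changes of 0.11 (adjusted p = 0.18) and 0.15 (adjusted p = 0.080).

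The log2 signal of Pygl minus that of Pygb on the same array was 0.04, -0.09 and -0.04 in TSR samples, against -0.11, -0.03 and 0.16 in control samples. The groups overlapped and their means differed by -0.04 (exact permutation p = 0.8, two-sided), a shift whose sign turned (0.04) when control replicate 3 was left out. A difference between the changes of the phosphorylase genes was thus not detectable with 3 arrays per group.

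**Figure D3:**
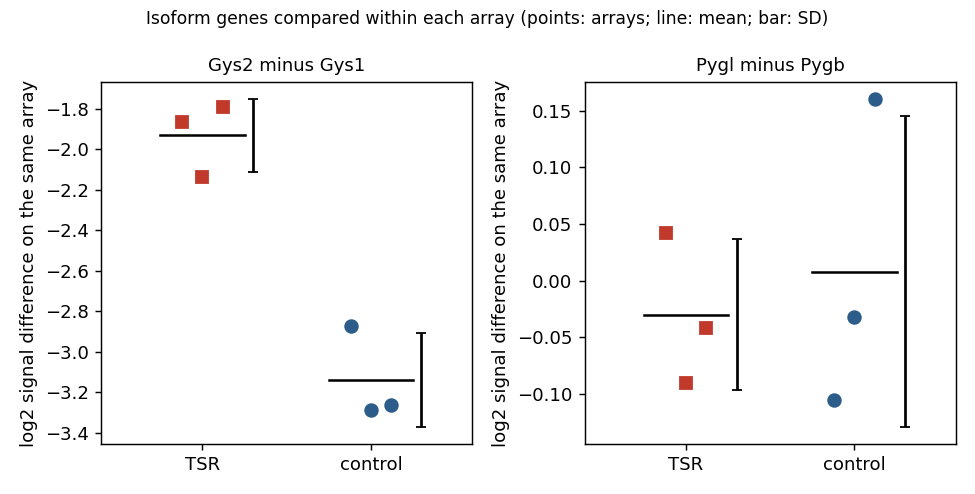
Difference in log2 signal between a pair of isoform genes on the same array, for the synthase genes (left) and the phosphorylase genes (right), with points for arrays, lines for means and bars for SD (n = 3 each). The synthase difference is higher in all 3 TSR samples than in any control sample (mean -1.93 in TSR and -3.14 in control), whereas the phosphorylase values overlap.

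Pgm2 was the only member that fell. Its signals were 129, 126 and 115 in TSR samples, against 169, 158 and 147 in control samples, without overlap (log2 fold change -0.36, standard error 0.11, adjusted p = 0.024). The call was lost without TSR replicate 3 (adjusted p = 0.073), control replicate 1 (0.082) or control replicate 2 (0.053). The mouse symbols Pgm1 and Pgm2 have been exchanged in the past, and RefSeq lists Pgm1 among the synonyms of Pgm2. The human enzyme that now bears the name PGM2 acts chiefly on pentose phosphates, whereas PGM1 interconverts glucose 1-phosphate and glucose 6-phosphate, the step between glycogen and glycolysis. Pgm1, which is not a member, had signals of 2387, 2396 and 2277 in TSR samples and 1815, 1953 and 1755 in control samples. It rose by 0.36 on the log2 scale (standard error 0.05, adjusted p = 5.9e-04), in the opposite direction to Pgm2.

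Around the 9 members, a list of 52 further genes of glycogen turnover, its regulation and glucose 6-phosphate supply was examined, each by its brightest probe set. Of these, 35 had a probe set of their own and 30 passed the filter. In this list 12 genes rose, 2 fell and 16 did not pass the test, while among all 8618 tested genes 24.0% rose and 23.0% fell. The 12 include Pygm, which passed the filter only through its TSR signals. Of the 29 genes that passed it in both groups, 11 rose. The median log2 fold change of the list was 0.17, against 0.01 over all tested genes. The balance depended on the scaling, since 9 genes rose and 4 fell with quantile normalization, and 8 rose and 6 fell when arrays were centred on their medians.

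The clearest changes were in genes that bring glucose in and handle glucose 6-phosphate, where 4 of 5 tested genes rose. Hk2, a hexokinase gene, had signals of 4886, 4950 and 4902 in TSR samples, against 2263, 2381 and 2327 in control samples (log2 fold change 1.08). Slc2a4, the gene of the insulin-responsive glucose transporter, changed by 1.04 and Slc37a4, which carries glucose 6-phosphate into the endoplasmic reticulum, by 0.64 on the log2 scale (adjusted p = 1.1e-05 and 1.2e-04). G6pc3, a ubiquitous glucose 6-phosphatase gene, rose by 0.49 and Hk1, another hexokinase gene, had a log2 fold change of -0.19 (adjusted p = 0.051). Hk2, Slc2a4, Slc37a4 and G6pc3 were called under each of the 15 alternatives.

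Genes that control phosphorylase and synthase were read against the 24.0% of all tested genes that rose. Of 6 genes for muscle phosphorylase and phosphorylase kinase, which activates phosphorylase, Pygm and Phkg2 rose (log2 fold change 0.57 and 0.24). The other 4 did not pass, among them the brightest, Phka2 (0.10, adjusted p = 0.31), which passed only without control replicate 2 (0.19, adjusted p = 0.042). Pygm had signals of 54.5, 55.4 and 55.9 in TSR samples and 34.0, 45.3 and 33.3 in control samples, and passed the filter only through its TSR signals. The Pygm call (adjusted p = 0.039) was kept in 5 of 14 alternatives and was lost on leaving out any single sample except control replicate 2, with adjusted p up to 0.10. That of Phkg2 was lost without TSR replicate 1 or 2 or control replicate 1 or 2 (adjusted p 0.051 to 0.091), after quantile normalization (0.13) and after median centring (0.20).

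Of 7 tested subunits of kinases that phosphorylate glycogen synthase, 3 rose. Prkaca, a catalytic subunit of protein kinase A, had signals of 497, 512 and 485 in TSR samples, against 363, 351 and 347 in control samples (log2 fold change 0.49, adjusted p = 2.0e-04). Gsk3b rose by 0.32 (adjusted p = 0.0057) and Prkag2, an AMP-activated kinase subunit, by 0.23 (adjusted p = 0.045), a call that was kept in 4 of 15 alternatives and lost without any single sample except control replicate 3 (adjusted p up to 0.14). The 2 other Prkag2 probe sets did not pass (0.05 and 0.31, adjusted p = 0.48 and 0.10). Gsk3a, the brightest of this group, had a log2 fold change of -0.21 (adjusted p = 0.13) and was called lower without control replicate 2 (adjusted p = 0.029) and after median centring (0.023).

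Among 6 tested genes of protein phosphatase 1, the catalytic subunit gene Ppp1ca (0.22) and the inhibitor gene Ppp1r1a (0.32) rose, and 4 did not pass. The Ppp1ca call was lost after median centring (adjusted p = 0.18) and the Ppp1r1a call in the methods' t-test (0.084). The brightest, the catalytic subunit gene Ppp1cc, had a log2 fold change of -0.06 (adjusted p = 0.30), while its other probe set rose by 0.38 (adjusted p = 0.0020). Ppp1r2, an inhibitor gene that did not pass by its brightest probe set (0.03), has 2 more, of which 1 rose by 0.66 (adjusted p = 0.0052) and 1 did not pass (0.15). Galm, an enzyme gene of galactose metabolism, also rose by a dimmer probe set only (0.51, adjusted p = 0.0022). The skeletal muscle glycogen-targeting subunit Ppp1r3a was below the filter, with signals between 1.21 and 15.3 in TSR samples and between 7.93 and 12.8 in control samples. The genes that fell were Stbd1, which tethers glycogen to membranes (log2 fold change -0.47, adjusted p = 0.021), and Ugdh, which oxidizes UDP-glucose to UDP-glucuronate (-0.34, adjusted p = 0.0070). The Stbd1 call was lost without TSR replicate 1 or 2 or control replicate 2 or 3 (adjusted p 0.058 to 0.071), and both the Stbd1 and the Ugdh call were lost in the methods' t-test (0.059 and 0.071). Gaa, the lysosomal glucosidase gene that degrades glycogen, had a log2 fold change of 0.17 (adjusted p = 0.18), which passed without control replicate 2 (0.28, adjusted p = 0.016).

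**Figure D4:**
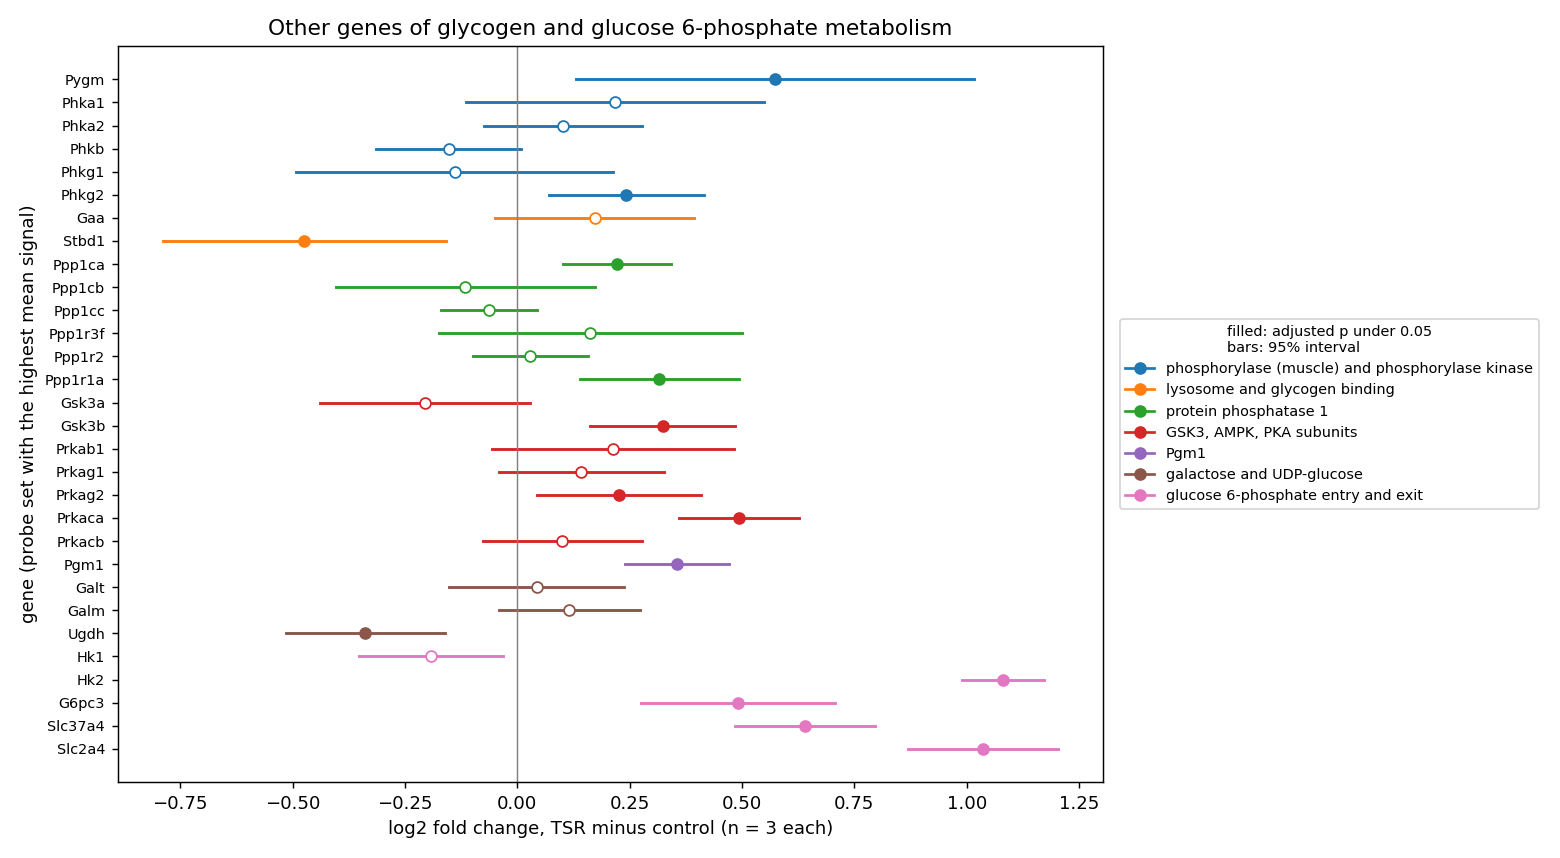
Log2 fold change, TSR minus control, with 95% intervals for the 30 tested genes around the members, coloured by group and filled where adjusted p was below 0.05 (n = 3 each). Hk2 (1.08) and Slc2a4 (1.04) lie farthest to the right, and Stbd1 (-0.47) and Ugdh (-0.34) are the filled points to the left of 0.

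Markers of several cell types, though not of all, also differed between the groups. Among all tested genes, each by its brightest probe set, 24.0% rose and 23.0% fell. Adipocyte markers were high in all samples, with summed signals of 79843 to 93103 in TSR samples and 93366 to 110635 in control samples over 9 genes, of which 3 rose and 5 fell. Of 18 measured hepatocyte (liver cell) markers, 16 had all TSR samples above all control samples, against 31.4% of all tested probe sets. Of these 16, 6 were below the filter and 6 passed it only through their TSR signals. The other 4 were called higher. Their summed signal was 26373 to 29739 in TSR samples and 19941 to 23106 in control samples, which includes Cyp2e1 and Pck1, the markers that fell. Without this pair, which adipose tissue also expresses, the sum was 13465 to 13974 in TSR samples against 454 to 570 in control samples. Albumin (Alb) had signals of 3178, 3360 and 3077 in TSR samples, against 128, 98.0 and 161 in control samples, and 5 markers, among them Fgb at 1.23 to 2.31, were below the 25th percentile of all control arrays. Gys2 and Pygl are expressed strongly in liver. The part of liver cell RNA in their rise, and in the changes of the other members and pathway genes, was not tested.

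Among 13 skeletal muscle markers, of which 2 passed the filter, Acta1 was the only one called, with signals of 1827, 1898 and 1887 in TSR samples against 404, 407 and 387 in control samples. The sum of the other 12 was 243 to 287 in TSR samples and 227 to 306 in control samples, and no signal among them exceeded 61.1 in TSR samples or 63.5 in control samples. With Acta1 included the sum was 2097 to 2186 in TSR samples and 614 to 710 in control samples. All 8 macrophage markers fell, against 23.0% of all tested genes, with sums of 11004 to 11271 in TSR samples and 16851 to 17362 in control samples. Of 8 neutrophil markers, 4 of them tested, 3 fell, and the sum of all 8 was 340 to 395 in TSR samples and 533 to 571 in control samples. Ltf, a neutrophil marker below the filter, had all TSR samples above all control samples (32.9, 19.4 and 23.6 against 7.59, 11.4 and 6.48). Of 5 mesothelial markers 1 rose and 2 fell, with sums of 2488 to 2734 in TSR samples and 2731 to 2866 in control samples. The part of these cells in the changes of the glycogen genes was not tested.

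**Figure D5:**
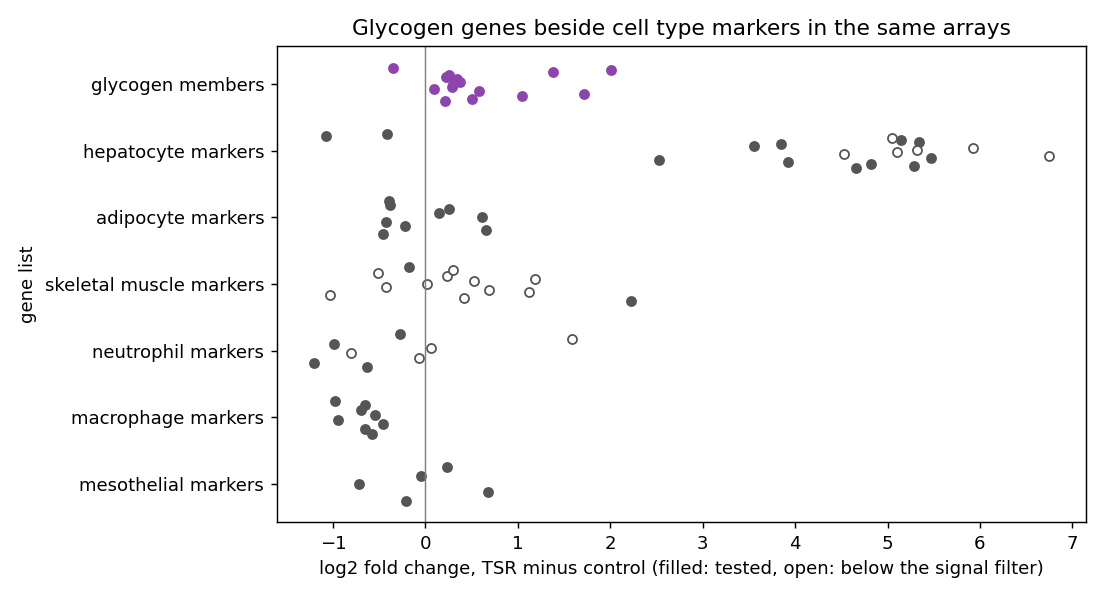
Log2 fold change, TSR minus control, of the glycogen probe sets and of 6 lists of cell type markers on the same arrays, with open points for probe sets below the signal filter. The glycogen values lie between -0.36 and 2.01, and 16 of the 18 hepatocyte markers lie above all of them.

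Differences between 5′ and 3′ probe sets of control RNAs also moved with the groups. For beta-actin, the log2 signal of the 5′ control probe set minus that of the 3′ one was -0.67 ± 0.0013 in TSR samples and -1.22 ± 0.012 in control samples (SD, n = 3 each). For Gapdh it was 0.13 ± 0.054 in TSR samples and -0.52 ± 0.066 in control samples. All TSR samples were above all control samples in 3 of the 5 mouse RNAs with such probe sets, while for 18S rRNA the groups overlapped (-0.46 in TSR and -0.39 in control samples, on average). For the bacterial control RNAs dap, lys, phe and thr, which are added to the sample RNA before labelling and so bear on the labelling, this difference was higher after TSR in all 8 pairs, by 0.39 to 1.52. Probe sets of a gene can lie at different positions in the transcript, which were not examined. The part of these measures in the size of the changes was not tested.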

How the data were processed

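Total RNA of 3 TSR and 3 control samples was hybridized to 1 Affymetrix array each. The authors computed MAS5 signal intensities with Expression Console (version not given in the sources used here), and the deposited intensity values are linear and scaled per array. Gene symbols came from the platform annotation, with 1 symbol for 20393 probe sets, several for 691 and none for 1606. All 9 members matched RefSeq by Entrez identifier.

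Signals were taken to log2 without further scaling. After removal of 64 control probe sets and of the lowest 35% of the rest by mean log2 signal (below 5.45), TSR and control were compared with limma 3.58.1 in R 4.3.3 (eBayes with intensity trend, two-sided) and Benjamini-Hochberg adjustment over 14707 probe sets. The study's expression calls were not used here. The methods' t-test was an alternative, beside other scalings, filters and the omission of single arrays. Replicate numbers were not used as pairs, since the labels do not say that they mark pairs. Deviations of same-numbered samples correlated with r of 0.015, 0.19 and 0.17, those of differently numbered samples with r between -0.22 and 0.058. With the replicate number as a block, 27.5% of all tested probe sets were called higher and 23.1% lower, against 25.6% and 21.0% without it. Precision is limited by the array number, and the median SD within a group was 0.10 (log2).

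The members and gene lists were chosen with earlier results of these data known. Named were all members and, per list, up to 3 called genes with the largest change and the brightest gene. G6pc3, Hk1, Ppp1r3a, G6pc, Slc2a2, Galm, Ppp1r2, other probe sets of Ppp1cc and Prkag2 and the markers given with values were named after their values were seen. The fit was tested on simulated data.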

Additional observations from a re-analysis of the deposited data

Results flagged for a closer look

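G6pc and Slc2a2, genes of glucose 6-phosphate metabolism known from liver, lay below the signal filter and so outside the main comparison. They were picked because every TSR sample was above every control sample, with no TSR signal below the 25th percentile of its array. G6pc, the liver glucose 6-phosphatase gene, had a mean signal of 42.3 in TSR samples (47.9, 32.5 and 46.6) and 14.1 in control samples (21.0, 5.15 and 16.3), and the control signals were all below the 25th percentile of their arrays. Slc2a2, which encodes the glucose transporter GLUT2, had a mean signal of 69.9 in TSR samples (69.6, 67.1 and 73.2) and 26.7 in control samples (37.6, 29.7 and 12.9). As both genes were picked by these same values, the separation is a description and no test is given. In 16 of 18 hepatocyte markers the TSR samples also lay above the control samples, against 31.4% of all tested probe sets. Of these 16, 6 were not tested and so have no part in that share, and 6 passed the filter only through their TSR signals. The part of liver cell RNA in these values was not tested.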

How the results depend on the processing

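Of the 15 glycogen probe sets, 14 kept their direction under every alternative run, and 8 of them were also called wherever they were tested. The brighter Ppp1r3c probe set, Gys2, Gbe1 and 3 of Ugp2 were called in all 15 alternatives, and the dimmer ones of Gys1 and Ppp1r3c in 14, since they were not tested with the lowest 50% left out. These 2 dimmer ones passed the filter only through their TSR signals, so that their calls are a description and add no support for a rise. The brighter Gys1 probe set lost its call in both forms of the methods' t-test (adjusted p 0.088 and 0.089). The count of higher probe sets was 13, the 2 dimmer ones included, and lay between 9 (median centring) and 13. It was 10 in the methods' t-test and 11 to 12 with single samples left out. The count of lower ones was 1, and 0 to 1 with single samples left out, since the Pgm2 call was lost without TSR replicate 3, control replicate 1 or control replicate 2. The brightest Ugp2 probe set turned to -0.017 after median centring and to -0.018 without TSR replicate 3, and lay between -0.018 and 0.16 with single samples left out. Outside the members, Phka2 turned to -0.0038 after median centring and Ppp1cc to 0.025 after quantile normalization, and neither was called there. The count of other pathway genes that fell was 2 at first, 0 in the methods' t-test on linear signals and on log2 signals, 4 after quantile normalization, 6 after median centring, and 1 to 3 with single samples left out (1 without TSR replicate 1 or 2, 3 without control replicate 1). With the replicate number as a block (replicate block), the glycogen counts were 13 higher and 1 lower, and 4 other pathway genes fell in place of 2. With all probe sets of a gene averaged, which takes in the dimmer Gys1 probe set, the difference of Gys2 minus Gys1 moved to 0.94. The causes of these moves were not tested. Dim probe sets such as those of Pygm and Ppp1r3a lie near the lowest signals, where differences are least certain.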
